A study of Vanessa cardui and Junonia coenia with 16 samples.

Results

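The forewing-higher clusters of the common buckeye butterfly, Junonia coenia, are 100 groups of assembled transcripts with more RNA in forewings than in hindwings in wild-type and in optix knockout animals. They were chosen from 124280 clusters of an assembled transcriptome, a cluster being all assembly rows that share a TRINITY DN and c number. FPKM, a read count scaled by transcript length and by the library's total, was summed over the rows of a cluster and taken as log2(sum + 1). Each cluster was scored by the smallest of 4 forewing minus hindwing differences, 1 for each genotype and library number. To be eligible, a cluster needed a mean sum of at least 2 FPKM over the 8 libraries and a highest sum at least 2 times the lowest. Its wild-type values also could not all lie above or all below its knockout values. These conditions left 9799 clusters, of which 655 (6.68%) were higher in the forewing in every pair, and the 100 highest scores among these were taken. All 4 wing differences therefore chose the members, and the wing difference is given below as a description, with no test.

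The forewing and hindwing of a butterfly are repeats of the same appendage. In insects the Hox gene Ultrabithorax is expressed in the hindwing and sets it apart from the forewing. Optix encodes a transcription factor that patterns butterfly wing colour, made of orange to red ommochromes and dark melanins in the scales. Wings were sampled late in pupal life, at what the labels call the melanin stage.

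The 4 groups were wild-type forewings, wild-type hindwings, forewings labelled as optix knockouts with large defects, and hindwings labelled as optix knockouts with no further grade. Each group had 2 libraries, described as biological replicates, from animals of a laboratory colony kept at Duke University and reared at 27 °C with 16 h of light and 8 h of dark. The labels do not say how many animals gave a library, or whether wings that share a number are from 1 animal, and the share of knockout cells in a wing was not measured. The assembly's identifiers hold no names and 0 matched a RefSeq table of 15000 V. cardui genes. Hence clusters are given by identifier, with no function, and neither the wing label nor the loss of optix could be checked against marker genes.

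FPKM give no read totals, but the spacing of the lowest values gave the libraries' relative depth. Set to 1.0 for wild-type forewing 2, it was 1.36 for wild-type forewing 1, 1.27 and 1.58 for the wild-type hindwings, 2.11 and 2.87 for the knockout forewings, and 2.71 and 3.29 for the knockout hindwings. The hindwing library was the deeper one in 3 of the 4 pairs, and all knockout libraries were deeper than all wild-type libraries. The wild-type libraries of number 1 and number 2 stood further apart than the knockout ones: over the 13250 clusters with a mean sum of at least 2, the median absolute log2 difference between numbers was 0.82 in wild type and 0.44 in knockout. The part of depth and of these library differences in the results was not tested.

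The wing difference of the 100 clusters, averaged over the 4 pairs, had a median of 0.90 on the log2(sum + 1) scale, with quartiles of 0.73 and 1.15 and a range of 0.43 to 2.25. The medians of the single pairs were 0.99 for wild-type pair 1, 0.83 for wild-type pair 2, 0.61 for knockout pair 1 and 0.79 for knockout pair 2. Over all 13250 clusters the median was 0 in each pair. Within a cluster the 4 pairs varied widely, with a median SD of 0.48. In wings of mixed tissue, fewer cells of a type and less RNA per cell cannot be told apart. Knockout pair 1 set the score most often, in 36 of 100 clusters, against 20 to 23 for each other pair.

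**Figure D1:**
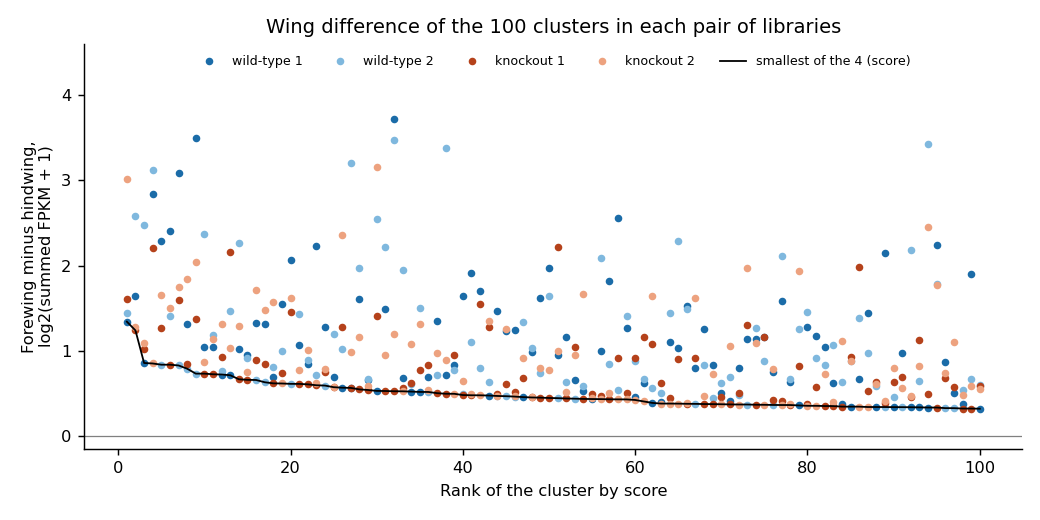
Forewing minus hindwing difference of each of the 100 clusters on the log2(summed FPKM + 1) scale, in order of score, with 1 point for each of the 4 pairs of libraries and a black line for the score. The line drops from 1.34 to below 1 after 2 clusters and then falls slowly to 0.32, while single pairs reach 3.72.

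Only 2 clusters had a score of at least 1, a difference of that size in every pair. TRINITY_DN45839_c3, with the highest score of 1.34, had summed FPKM of 92.3 and 1.72 in wild-type forewings, 91.1 and 66.7 in knockout forewings, 35.8 and 0 in wild-type hindwings, and 29.3 and 7.34 in knockout hindwings (libraries 1 and 2 in this order throughout). Its wild-type libraries of number 2 were far below all other libraries of the same wing, so that forewings and hindwings overlapped although each forewing exceeded its own hindwing. Its mean wing difference was 1.85 ± 0.79 (SD, n = 4 pairs). This holds for the sum: of its 2 assembly rows, 0 were higher in the forewing in all 4 pairs. TRINITY_DN40084_c0, with a score of 1.24, read 61.8 and 5.90 in wild-type forewings, 104 and 99.1 in knockout forewings, 19.1 and 0.155 in wild-type hindwings, and 43.6 and 40.3 in knockout hindwings. Here too the wild-type libraries of number 2 were the lowest of each wing, and the mean wing difference was 1.69 ± 0.62 (SD, n = 4 pairs).

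Across the list the median score was 0.45, and 37 clusters had a score of at least 0.5. The last clusters taken were TRINITY_DN47242_c0 at 0.322 and TRINITY_DN41729_c0 at 0.320, and the first ones left out were TRINITY_DN50436_c1 at 0.315 and TRINITY_DN47495_c4 at 0.314. TRINITY_DN41729_c0 read 7.04 and 4.2 in wild-type forewings, 7.0 and 5.77 in knockout forewings, 5.44 and 2.42 in wild-type hindwings, and 4.35 and 3.61 in knockout hindwings. Its forewings and hindwings overlapped, as they did in most of the list: in 18 of 100 clusters all 4 forewings exceeded all 4 hindwings.

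Most of the clusters were of low abundance. The mean sum over the 8 libraries had a median of 7.79 FPKM, against 8.35 over all 13250 clusters, with quartiles of 4.02 and 24.7. It was under 10 in 57 clusters, 10 to 100 in 36 and at least 100 in 7. Of the 9799 eligible clusters, 6075 were under 10, so low abundance was not particular to the list. The lowest, TRINITY_DN51387_c3, read 2.84 and 3.01 in wild-type forewings, 2.28 and 2.23 in knockout forewings, 1.21 and 1.88 in wild-type hindwings, and 1.3 and 1.5 in knockout hindwings. All 4 forewings of this cluster lay above all 4 hindwings. The next lowest, TRINITY_DN49278_c1, had a mean sum of 2.12 FPKM. Of the 100 clusters, 18 were listed at 0 in at least 1 hindwing library, 3 of them in both wild-type and 2 in both knockout hindwings. None could be at 0 in a forewing, since the choice required each forewing to exceed its hindwing. In wild-type hindwings 1 and 2 and knockout hindwings 1 and 2, 10, 9, 3 and 6 of the 100 were at 0. Among the 9799 eligible clusters, 774, 897, 415 and 309 were. An exact 0 can be a failed estimate.

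At the other end, the list made up 2.13%, 3.62%, 3.03% and 3.72% of the total FPKM of wild-type forewings 1 and 2 and knockout forewings 1 and 2. In the hindwings of the same order it made up 1.08%, 1.86%, 1.84% and 1.99%. A single cluster, TRINITY_DN25778_c0, held 51.5% to 61.0% of the list's FPKM in each library. It read 13682 and 24870 in wild-type forewings, 18450.0 and 17388 in knockout forewings, 6653 and 10899 in wild-type hindwings, and 11165 and 7928 in knockout hindwings. Every forewing lay above every hindwing, and the mean wing difference was 1.02 ± 0.21 (SD, n = 4 pairs), a 2.03-fold difference.

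The next 3 in abundance shared 1 DN number, TRINITY_DN52014. TRINITY_DN52014_c22 read 5513 and 9296 in wild-type forewings, 5495 and 5775 in knockout forewings, 3589 and 4434 in wild-type hindwings, and 4307 and 4365 in knockout hindwings. Its forewings all lay above its hindwings, with a mean wing difference of 0.61 ± 0.33 (SD, n = 4 pairs). TRINITY_DN52014_c81 and TRINITY_DN52014_c79 had mean wing differences of 1.15 ± 0.47 and 1.2 ± 0.49 (SD, n = 4 pairs). Clusters of one DN number can share sequence, so how reads were divided among these 3 is uncertain. Of the 78 other clusters of the same DN number tested, 15 were higher in the forewing in all 4 pairs, beside 7.14% of all clusters tested, and 4 were higher in the hindwing, beside 7.48%. Their mean wing differences ran from -1.13 to 0.86 with a median of 0.05. The 3 further clusters with a mean sum of at least 100 were TRINITY_DN25993_c0, TRINITY_DN39042_c0 and TRINITY_DN45813_c5, named here after their values were seen.

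**Figure D2:**
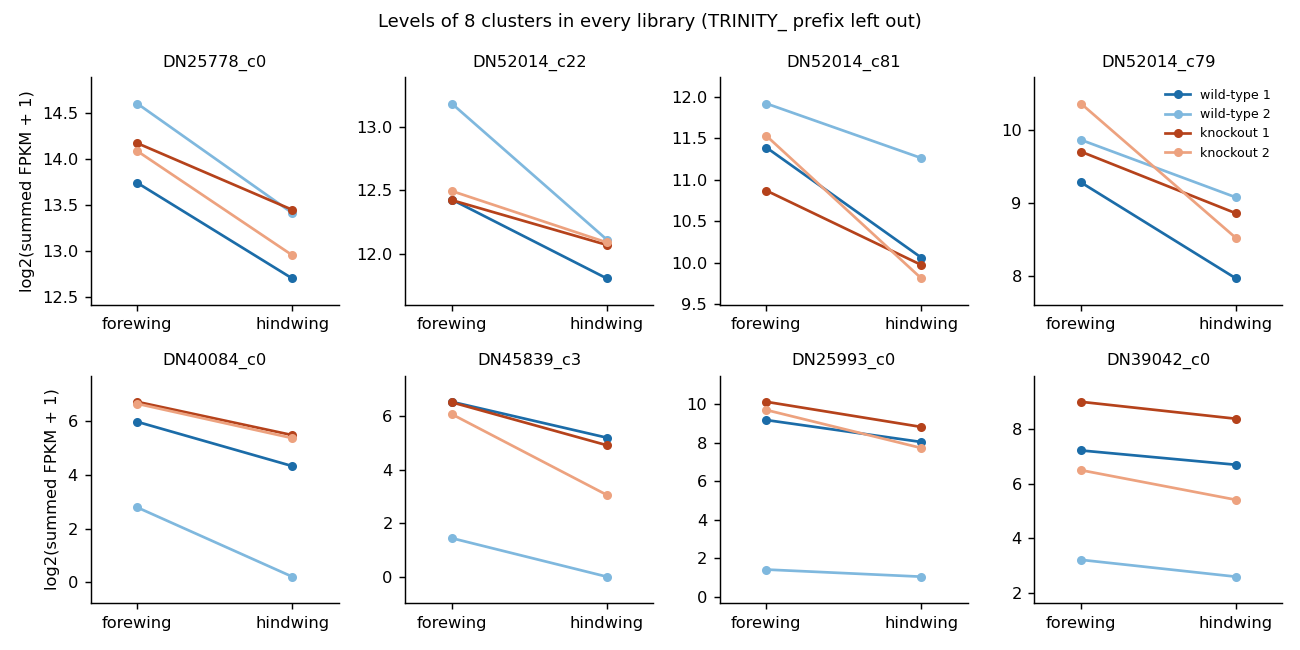
Level of 8 of the 100 clusters in every library as log2(summed FPKM + 1), each panel with its own axis, with a line joining the forewing and hindwing of the same genotype and number. All lines fall from forewing to hindwing, which the choice fixed. In the lower row wild-type pair 2 lies below the other pairs, down to 0 FPKM in the hindwing of TRINITY_DN45839_c3.

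The assembly rows of a cluster are parts of the sum that chose it, so their lean towards the forewing is a description that the choice largely fixed. The clusters held 1 row above 0 in 45 cases and 2 or more in 55, up to 11 rows in TRINITY_DN48579_c3. In 44 clusters at least 2 rows had a mean of 1 FPKM or more, 115 rows in all, and 109 of these rows had a higher forewing than hindwing mean. Every such row was higher in all 4 pairs in 5 of the 44 clusters, and the leading row was so in 22. The leading row held a median of 52.5% of the cluster's FPKM. TRINITY_DN48579_c3 read 114 and 63.0 in wild-type forewings, 36.6 and 45.6 in knockout forewings, 47.4 and 45.5 in wild-type hindwings, and 25.2 and 32.7 in knockout hindwings. Its knockout forewings thus lay between its knockout and its highest wild-type hindwings, and the wings overlapped.

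Because the score used every pair, the wing difference was also read in pairs left out of the score. The 100 highest scores were taken on 3 pairs and the difference was read in the fourth, with eligibility still taken from all 8 libraries. The clusters so chosen were in large part others than the forewing-higher clusters described above. They shared 51 with that list when wild-type pair 1 was left out and 35 for wild-type pair 2. For knockout pairs 1 and 2 they shared 40 and 32. Of the 100 clusters so chosen, 61 were higher in the forewing of wild-type pair 1, against 47.5% of the eligible clusters. The number was 44 in wild-type pair 2 (44.2% of eligible clusters), 63 in knockout pair 1 (47.6%) and 47 in knockout pair 2 (46.9%). In the same order of pairs, 20, 38, 32 and 51 of the 100 were higher in the hindwing, against 48.7%, 49.1%, 49.4% and 51.2% of eligible clusters. A further 19, 18, 5 and 2 were equal in both wings. In both pairs of number 2, clusters chosen on the other pairs were thus higher in the forewing about as often as eligible clusters at large. With eligibility taken from the other 6 libraries, the counts in the same order of pairs were 56, 41, 63 and 48. The shares of eligible clusters were then 45.4%, 40.9%, 47.3% and 44.6%.

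The level of the clusters separated the readings with eligibility from all 8 libraries. Among clusters with a mean sum of at least 10 FPKM, 26 of 31 were higher in the forewing of wild-type pair 1, 25 of 38 in wild-type pair 2, 25 of 33 in knockout pair 1 and 21 of 33 in knockout pair 2. These are 83.9%, 65.8%, 75.8% and 63.6%, against 47.7% to 50.2% of the 3724 eligible clusters of that level. Their median wing differences in the pair left out were 0.56, 0.29, 0.45 and 0.34. Under 10 FPKM, 35 of 69, 19 of 62, 38 of 67 and 26 of 67 were higher in the forewing, which is 50.7%, 30.6%, 56.7% and 38.8%, against 42.1% to 46.8% of the 6075 eligible clusters. Those higher in the hindwing numbered 5, 6, 8 and 11 at the higher level and 15, 32, 24 and 40 at the lower level. Any others were equal in both wings. At the higher level all 4 shares stood above their background, and at the lower level 2 stood above and 2 below it. The level was the mean sum over all 8 libraries, so it included the pair left out. Of the 100 forewing-higher clusters, 43 belong to the higher and 57 to the lower level. All 4 pairs chose those 100, so the shares above do not carry over to them. The division at 10 FPKM was chosen after the data were seen, and the difference between the levels was not tested.

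**Figure D3:**
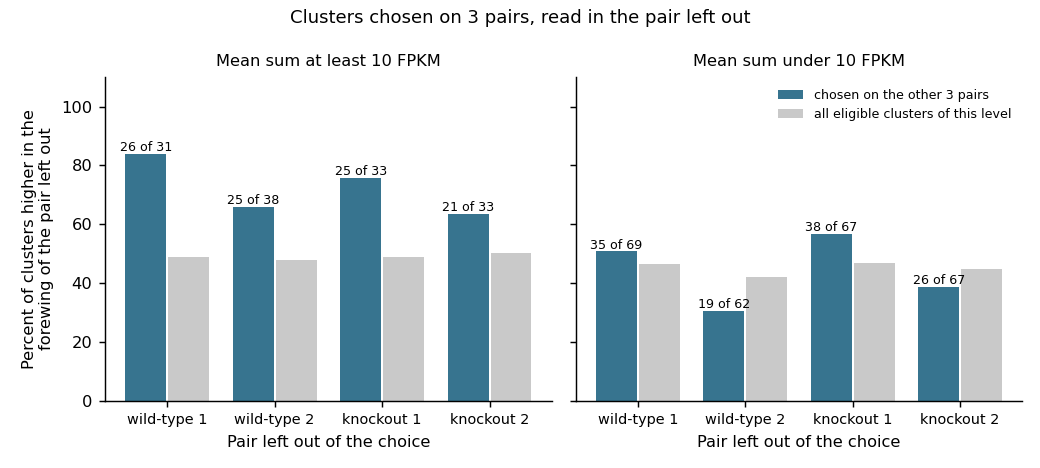
Percent of clusters that were higher in the forewing of the pair left out, for clusters chosen on the other 3 pairs (blue, with counts) and for all eligible clusters of the same level (grey), with mean sums of at least 10 FPKM on the left and under 10 FPKM on the right. The blue bars reach 63.6% to 83.9% on the left and 30.6% to 56.7% on the right.

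Knockout and wild type were compared to ask whether the forewing-higher clusters followed genotype. No cluster of the 100 passed the test in the forewing. A limma fit to all 13250 clusters called 0 of the 100 in the forewing at an adjusted p of 0.05 (Benjamini-Hochberg), beside 0.475% of all clusters tested and 0.0204% of eligible clusters, and the smallest adjusted p of a member was 0.427. At an unadjusted p under 0.05 there were 8, beside 9.73% of all and 3.05% of eligible clusters. The choice had left out clusters with all wild types on one side of all knockouts, so few calls could occur, and the count says little about the members. The median knockout minus wild-type difference was 0.08 in the list and 0.17 over all clusters tested, with 52 of the 100 higher and 48 lower in knockouts. The list's median turned negative, to -0.091 without wild-type forewing 2, -0.096 without knockout forewing 1 and -0.011 with median-of-ratios scaling. Both knockout forewings lay above both wild-type forewings in 18 clusters, beside 23.7% of all and 16.1% of eligible clusters. They lay below them in 25, beside 16.5% of all and 11% of eligible clusters.

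In the hindwing the same fit called 0 of the 100, beside 0.46% of all clusters tested and 0% of eligible ones. The smallest adjusted p of a member was 0.218, and 8 had an unadjusted p under 0.05, beside 8.99% of all and 2.31% of eligible clusters. The median difference was 0.25 in the list and 0.16 over all clusters, with 63 of the 100 higher and 37 lower in knockouts. Both knockout hindwings lay above both wild-type hindwings in 26 clusters, beside 22.1% of all and 14.3% of eligible clusters, and below them in 13, beside 14.8% and 8.97%. Over both wings, limma called 0 of the 100, beside 2.14% of all and 0.051% of eligible clusters. At an unadjusted p under 0.05 there were 15, of which 7 were higher and 8 lower in knockouts, beside 17.4% of all and 5.08% of eligible clusters. With the library number as a block, 5 of the 100 were called over both wings, beside 726 of the 13250. With the wings of one genotype and number taken as correlated, at an estimated 0.749, limma called 0 of the 100 over both wings (smallest adjusted p = 0.418). It then called 46 of the 13250, and 6 of the 100 had an unadjusted p under 0.05.

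TRINITY_DN46945_c1 came nearest to a call over both wings and is named after its values were seen. It read 8.08 and 3.48 in wild-type forewings, 18.4 and 11.3 in knockout forewings, 1.41 and 1.09 in wild-type hindwings, and 12.9 and 7.72 in knockout hindwings. The knockout libraries were the higher ones within each wing with no overlap. The difference over both wings was 1.79 (SE 0.37, limma adjusted p = 0.0751), and the fit with library number as a block and the one on values scaled to the column total called it. With same-numbered wings of a genotype taken as correlated, no member had a limma adjusted p under 0.418 over both wings.

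In the clusters with the largest genotype differences, none of them called in the fit without a block, the wild-type library of number 2 often stood apart. TRINITY_DN25993_c0 read 578 and 1.68 in wild-type forewings, 1116 and 831 in knockout forewings, 262 and 1.08 in wild-type hindwings, and 451 and 211 in knockout hindwings. Both wild-type libraries of number 2 were under 2 FPKM while all other libraries were at 211 or more. Its knockout minus wild-type difference was 4.61 in the forewing (SE 2.95, limma adjusted p = 0.661) and 0.73 without wild-type forewing 2. In the hindwing the difference was 3.73 (SE 2.95, limma adjusted p = 0.782), and 0.23 without wild-type hindwing 2. TRINITY_DN39042_c0 read 147 and 8.31 in wild-type forewings, 504 and 88.7 in knockout forewings, 102 and 5.08 in wild-type hindwings, and 328 and 41.4 in knockout hindwings. Number 1 exceeded number 2 in every group, genotypes overlapped in both wings, and the forewing difference was 2.52 (SE 1.95, limma adjusted p = 0.704), or 0.53 without wild-type forewing 2. Over both wings this cluster was called with library number as a block, at 2.38 (limma adjusted p = 0.0233).

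For TRINITY_DN40084_c0, described above, both knockout hindwings lay above both wild-type hindwings. The difference of the group means was 3.16 (SE 1.49, limma adjusted p = 0.624), and 1.10 without wild-type hindwing 2. The largest negative differences also belonged to clusters with a high wild-type number 2. TRINITY_DN40565_c0 read 13.8 and 103 in wild-type forewings, 9.06 and 5.39 in knockout forewings, 5.62 and 55.6 in wild-type hindwings, and 3.48 and 3.96 in knockout hindwings. Its knockouts were the lower ones in both wings, with a difference of -2.17 over both (SE 0.87, limma adjusted p = 0.273), or -1.39 without wild-type hindwing 2. TRINITY_DN4705_c0 read 1.66 and 70.6 in wild-type forewings, 7.20 and 0.605 in knockout forewings, 0.671 and 26.4 in wild-type hindwings, and 1.07 and 0.264 in knockout hindwings. Genotypes overlapped in both wings, and its forewing difference of -1.93 (SE 1.91, limma adjusted p = 0.746) turned to 0.45 without wild-type forewing 2. TRINITY_DN45608_c0 read 60.3 and 171 in wild-type forewings, 50.2 and 15.8 in knockout forewings, 42.1 and 136 in wild-type hindwings, and 33.4 and 6.82 in knockout hindwings. Both knockouts lay below both wild types in each wing, with a difference of -2.02 over both (SE 0.72, limma adjusted p = 0.233).

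**Figure D4:**
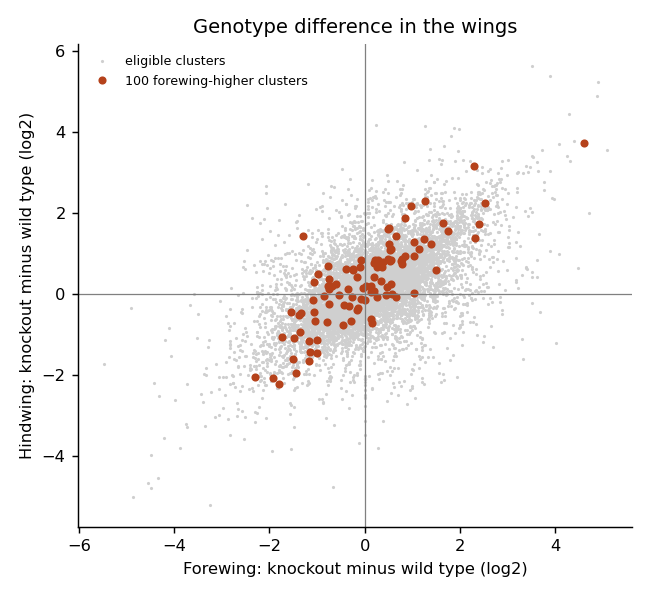
Knockout minus wild-type difference on the log2(summed FPKM + 1) scale in the forewing (horizontal) and hindwing (vertical) for the 100 forewing-higher clusters (red) and the 9799 eligible clusters (grey), with no replicate error shown. The red points run from -2.30 to 4.61 in the forewing, inside the range of the grey points from -5.48 to 5.10, and none was called by limma in either wing.

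Whether the size of the wing difference itself changed with genotype was described only, since the score used it. Both wild-type pairs lay above both knockout pairs in 35 clusters, beside 17.4% of all and 17.9% of eligible clusters. Both knockout pairs lay above both wild-type pairs in 15, beside 17.8% and 17.5%. These shares include clusters that were not higher in the forewing in every pair, as the choice required. Wing differences of eligible clusters spread more widely in wild type. Their quartiles were -0.41 and 0.45 in wild-type pair 1 and -0.50 and 0.35 in wild-type pair 2. They were -0.33 and 0.27 in knockout pair 1 and -0.43 and 0.32 in knockout pair 2. The part of this spread in the 2 counts was not tested. TRINITY_DN46704_c7 had the widest such gap, with 12.1 and 10.1 in wild-type forewings, 4.06 and 3.80 in knockout forewings, 0 and 0 in wild-type hindwings, and 2.52 and 1.09 in knockout hindwings. It was listed at 0 in both wild-type hindwings, and its wing differences were 3.72 and 3.48 in wild type and 0.53 and 1.2 in knockout. TRINITY_DN44279_c0 followed with wing differences of 1.59 and 2.11 in wild type and 0.41 and 0.36 in knockout. In the other direction, TRINITY_DN46488_c4 had differences of 0.48 and 0.63 in wild type and 1.28 and 1.35 in knockout, and TRINITY_DN47313_c4 had 0.39 and 0.57 in wild type and 1.08 and 1.64 in knockout. In 4 clusters, beside 1.17% of all and 1.42% of eligible clusters, knockouts lay above wild types in one wing and below them in the other without overlap.

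Differences between libraries of the same genotype and wing were about as large as the wing difference. Between numbers 1 and 2, averaged over the wings, the median absolute log2 difference of the 100 clusters was 1.0 in wild type and 0.54 in knockout. It exceeded the cluster's own wing difference in 42 clusters in wild type and in 35 in knockout. In wild type, 31 clusters were more than 1 higher and 20 more than 1 lower in number 1, which together is 51% of the list, beside 42.9% of all clusters tested. In knockout the counts were 19 and 6, which is 25%, beside 19.1%. The clusters thus did not all vary between libraries in one direction. TRINITY_DN25993_c0 and TRINITY_DN39042_c0, given above, were highest in number 1. TRINITY_DN41427_c0 stood highest in number 2, with 23.2 and 204 in wild-type forewings, 9.94 and 39.7 in knockout forewings, 10.9 and 41.5 in wild-type hindwings, and 5.89 and 15.7 in knockout hindwings. Number 2 exceeded number 1 in each of its groups, and TRINITY_DN47454_c0 was also higher in number 2 in every group.

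**Figure D5:**
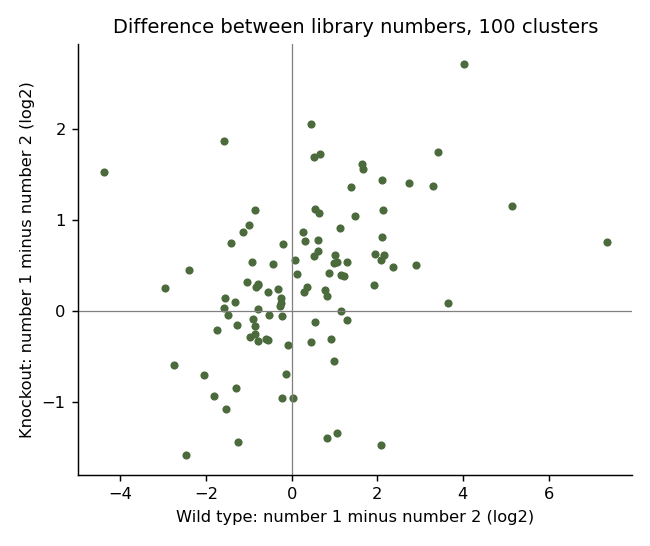
Difference between library number 1 and number 2, averaged over forewing and hindwing on the log2(summed FPKM + 1) scale, in wild type (horizontal) and in knockout (vertical), with 1 point for each of the 100 clusters. Wild type spans -4.39 to 7.37 and knockout -1.58 to 2.72.

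The clusters did not rise and fall as 1 set. Over the 8 libraries, Pearson's r between members on the log2(sum + 1) scale ran from -0.87 to 0.99 with a median of 0.40 and quartiles of 0.06 and 0.69, over 4950 pairs of clusters. These correlations share the same libraries and the wing difference that the choice fixed, and are a description only.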

How the data were processed

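Values for the 8 J. coenia libraries were used, and the V. cardui libraries of the series were not analysed here. Per the labels' protocols, poly(A) RNA was amplified with 15 PCR cycles and sequenced as 36 bp paired-end reads. The deposited table holds FPKM per assembly row, computed by the authors. Bowtie2 was used, per the submitters' processing notes. What program computed the FPKM, and whether libraries were scaled to each other, is not given in the sources used here.

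From there, FPKM were summed per cluster and set to log2(sum + 1). A group-means model was fitted with limma 3.58.1 in R 4.3.3 to the 13250 clusters with a mean sum of at least 2, with a mean-variance trend and two-sided p adjusted by the Benjamini-Hochberg method over all of them. Log2 differences understate changes at low values. Relative depth came from values under 0.6 FPKM, where all 28 pairs of libraries lay within 0.05 (log2) of a joint fit. Read totals are unknown, so no counting intervals are given. The p-values measure the spread between 2 libraries per group, in an estimate shared by all groups. The fit took the 8 libraries as independent, although same-numbered wings of a genotype correlated at an estimated 0.749. Its SE and p over both wings can therefore be too small. With that correlation modelled, clusters called by limma over both wings went from 284 to 46 of 13250. The fit was tested on simulated data with independent libraries, which could not show the effect of that correlation.

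Members and lists were chosen with earlier results of these data known. At most 2 clusters in each direction were named per comparison: those with the highest and lowest scores and levels, the largest genotype and number differences, the widest gaps between genotypes in wing difference, and the most rows. Alternatives were another pseudocount, filter, normalization, level of summing, block, moderation and leaving out each library.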

Additional observations from a re-analysis of the deposited data

Results flagged for a closer look

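In 4 of the 100 clusters, beside 1.42% of eligible clusters, every knockout library moved one way from both wild types in the forewing and the opposite way in the hindwing. The difference between the wings was not tested, and it is the wing difference that chose the clusters. In TRINITY_DN47313_c4 the forewings read 4.87 and 4.14 FPKM in wild type and 4.99 and 5.29 in knockout, and the hindwings 3.48 and 2.47 in wild type and 1.83 and 1.01 in knockout. Its knockout minus wild-type difference was 0.16 in the forewing and -0.73 in the hindwing. The other 3 went the opposite way. TRINITY_DN46704_c7, whose values are given above, had a difference of -1.3 in the forewing and 1.44 in the hindwing. TRINITY_DN51294_c0 read 10.6 and 20.8 in wild-type and 8.54 and 8.49 in knockout forewings, and 3.11 and 3.68 in wild-type and 5.62 and 3.93 in knockout hindwings, with differences of -0.74 and 0.38. TRINITY_DN47306_c1 read 3.69 and 5.26 in wild-type and 2.70 and 2.40 in knockout forewings, and 1.17 and 1.3 in wild-type and 1.73 and 1.61 in knockout hindwings, with differences of -0.61 and 0.26.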

How the results depend on the processing

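In the forewing and in the hindwing, limma called 0 of the 100 clusters under every alternative tried. Over both wings the count was 5 with library number as a replicate block (4 higher, 1 lower in knockouts) and 1, TRINITY_DN46945_c1, with values scaled to the column total (chosen after seeing the data), and 0 under the other alternatives. That block takes the numbers as pairs across genotypes, which the labels do not state. Number 1 minus number 2 correlated at 0.19 to 0.32 between genotypes over all clusters, and at 0.25 to 0.43 over the 100. Between wings of a genotype it correlated, over all clusters, at 0.72 in wild type and 0.70 in knockout. Which clusters were chosen depended on the choice itself: of the 100, 91 were retained with a pseudocount of 0.1, 90 with median-of-ratios scaling, 81 with column-total scaling, 80 with quantile normalization, 66 with a mean sum of at least 5, 58 when sums were taken per DN number, and 30 to 44 when 1 pair was left out. The median wing difference was 1.12 with a pseudocount of 0.1, and 0.82 to 1.0 when a library was left out. The members' median knockout minus wild-type difference in the forewing was -0.011 with median-of-ratios scaling, 0.031 with quantile normalization and 0.41 with column-total scaling, and -0.096 to 0.13 when a library was left out. In the hindwing it was 0.39 with a pseudocount of 0.1, 0.17 with median-of-ratios scaling, 0.12 with quantile normalization, 0.54 with column-total scaling and 0.20 to 0.48 when a library was left out. The median over all clusters moved too, from 0.17 to 0.08, 0.03 and 0.48 in the forewing and from 0.16 to 0.05, 0.01 and 0.47 in the hindwing under median-of-ratios, quantile and column-total scaling. TRINITY_DN4705_c0 in the forewing ran from -4.30 to 0.45 when a library was left out, and reversed to 0.45 without wild-type forewing replicate 2. Leaving out a library leaves a lone sample in its group, which is assumed to vary like the other groups. The causes were not tested. With 2 libraries per group and unknown read totals, differences in clusters of low FPKM are the least precise.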
